A study of Mus musculus with 466 samples.

Results

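The proteasome subunit genes were followed over 8 days of caloric restriction in 6 tissues of obese mice. They were taken as all genes whose symbol is Psma, Psmb, Psmc, Psmd or Psme followed directly by a number, leaving out Psmb8 and Psmb9, which gave 41 of the 16643 genes named on the array. The set held 8 genes of the alpha ring, 7 of the beta ring, 2 inducible or tissue-restricted beta subunits, 6 genes of the ATPase ring, 11 non-ATPase subunits of the regulatory particle, 3 assembly chaperones and 4 activators. The 466 Affymetrix arrays, hybridised with biotin-labelled total RNA, came from 80 male C57BL/6J mice. Mice were killed on day 0, 1, 3, 7, 14, 21, 42 or 60 of the restriction, and the tissues taken were hypothalamus, liver and fat from 4 sites, with the labels subcutaneous, mesenteric, perirenal and perigonadal. A tissue had 10 to 12 arrays at day 0, 5 at day 1, 9 to 11 at day 3, 10 to 12 at day 7, 9 or 10 at day 14, 11 or 12 at day 21, 10 to 12 at day 42 and 6 at day 60. All groups were obese mice of 1 strain and sex, day 0 was the only group without restriction, and no unrestricted mice of the later days were analysed here, so the effect of restriction and of time cannot be told apart. The diet that made the mice obese, the degree of restriction and the age of the mice are not given in the labels.

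The proteasome is the main machine that breaks down proteins tagged with ubiquitin in the cytosol and nucleus. A barrel-shaped core particle of alpha and beta rings cuts the proteins inside its chamber, and a regulatory particle made of an ATPase ring and non-ATPase subunits captures, unfolds and feeds them in. Activators of the Psme genes can cap the core in its place, and interferon gamma can replace the cutting beta subunits by inducible ones. When proteasome activity falls, the transcription factor NFE2L1 raises most subunit genes together through antioxidant response elements.

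Liver, hypothalamus and adipose tissue matched their labels by marker genes. The median deposited intensity over all days was 35.7 for Alb in liver, 17.5 for Snap25 in hypothalamus, and 18.3 to 19.1 for Adipoq in the 4 depots. Wt1 and Upk3b are made by the mesothelium that covers visceral fat, and they went against the depot labels. The median of Wt1 was 0.752 in the labelled subcutaneous depot but 0.0202 in the labelled perigonadal one, so each depot is called here by its label only. In 11 arrays the deviations from the tissue and day median spread more than 2 times as widely as in the tissue's median array. Of these, 6 lay in the labelled mesenteric depot, among them that of mouse N20 at day 42, the widest at 3.87 times, and that of J30 at day 42. Animal IDs start with J or N, except that of mouse 32 of day 3, which has no letter. Day 1 held only J and day 60 only N animals, so the letter was a term in the fits, where mouse 32 had a level of its own.

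Psma1, Psmd4 and Psmc6 were each called in 3 tissues at day 42, Psma1 and Psmd4 lower and Psmc6 higher, and the bases before their start sites show what the promoters of genes with opposite changes hold. The RefSeq table of build GRCm38.p6 held promoters of 34 of the 41 members, and the 250 bases before each start are shown 5′ to 3′ along the gene, with every match to TGACNNNGC, the core bound by NFE2L1, or to CCAAT, bound by NF-Y, on either strand in capitals.
Psma1 (chr7:114276117-114276366, minus strand): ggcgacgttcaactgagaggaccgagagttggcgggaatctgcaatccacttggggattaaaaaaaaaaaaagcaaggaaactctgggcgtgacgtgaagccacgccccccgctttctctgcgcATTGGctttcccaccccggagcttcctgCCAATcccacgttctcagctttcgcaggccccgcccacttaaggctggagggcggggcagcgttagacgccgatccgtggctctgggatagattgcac
Psmd4 (chr3:95042615-95042864, minus strand): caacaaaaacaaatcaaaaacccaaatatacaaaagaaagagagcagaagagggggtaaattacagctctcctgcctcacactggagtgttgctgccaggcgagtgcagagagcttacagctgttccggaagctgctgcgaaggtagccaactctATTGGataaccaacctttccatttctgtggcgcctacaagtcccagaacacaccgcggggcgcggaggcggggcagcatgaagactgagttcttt
Psmc6 (chr14:45329574-45329823, plus strand): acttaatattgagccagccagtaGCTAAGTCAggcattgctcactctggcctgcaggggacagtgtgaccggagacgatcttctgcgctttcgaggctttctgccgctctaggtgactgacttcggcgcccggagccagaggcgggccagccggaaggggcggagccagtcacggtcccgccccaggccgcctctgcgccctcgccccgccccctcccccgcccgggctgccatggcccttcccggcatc
Psma1 had 2 CCAAT matches, whose nearest bases lay 122 and 94 bases before the start, and Psmd4 had 1 at 91 bases. Psmc6 had no CCAAT match and 1 match to TGACNNNGC, on the other strand, 219 bases before the start. Among the windows of the other members called in 3 tissues, those of Psmd13 and Psme4 held neither motif, and Psmb2 was not among the matched genes. TGACNNNGC was found in 5 of the 37 member promoters, or 13.5%, against 10.2% of all 32851 promoters of the same length, and CCAAT in 13 of 37, or 35.1%, against 33.8%. Matches of the 2 motifs overlapped in 0 of the member promoters and in 48 of all promoters. The matches describe the letters in these windows and no more.

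The changes of the proteasome genes at day 42 were small. Over 1680 tests of a member in 1 tissue at 1 day against day 0, limma with Benjamini-Hochberg adjustment over all genes of the tissue called 103 at an adjusted p under 0.05, of which 25 were higher and 78 lower than at day 0. Of the 41 members, 26 were called at some day in some tissue and 15 at none. At day 42, 39 of 240 tests were called, 9 higher and 30 lower, and they fell on 21 of the 41 members. By tissue, 0% to 32.2% of all genes were called at day 42, and at no other day against day 0 did a share exceed 32.2%. The pooled counts, over tissues or over days, were not made for all genes. The shares by direction and tissue at day 42 are given below. The log2 change was under 0.1 in size in 228 of the 240 tests, and the called changes lay between a fall of 0.28 and a rise of 0.12. In bulk tissue, fewer cells of a type and less RNA per cell cannot be told apart.

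**Figure D1:**
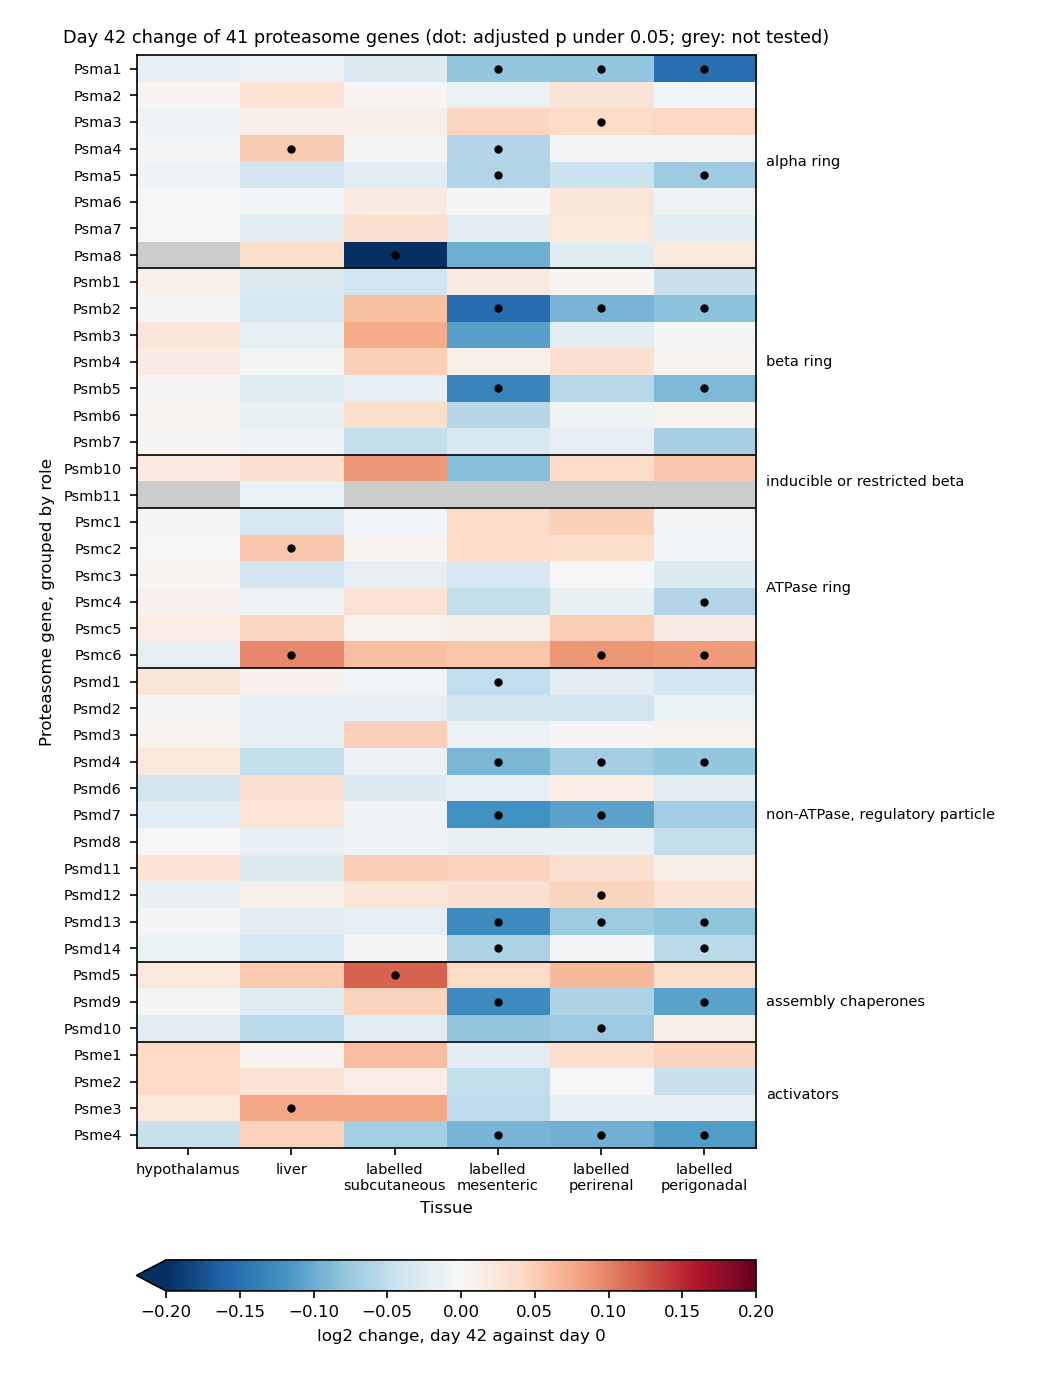
Log2 change at day 42 against day 0 (colour, blue lower and red higher) for the 41 proteasome genes in rows, grouped by role, and the 6 tissues in columns, where a dot marks an adjusted p under 0.05 and grey a gene that was not tested. No gene was called in hypothalamus, while Psma1, Psmb2, Psmd4, Psmd13 and Psme4 were lower in 3 depots and Psmc6 was higher in liver and 2 depots.

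In the alpha ring, which gates the entry to the core, Psma1 changed most clearly. In the labelled perigonadal depot its mean intensity was 5.59, 5.57, 5.38, 5.28, 5.14, 5.12, 5.05 and 5.13 over days 0, 1, 3, 7, 14, 21, 42 and 60, the order of days in every such series below. At day 42 the 10 arrays ran from 4.82 over a median of 5.01 to 5.51, against 5.29, 5.67 and 5.76 in the 11 arrays of day 0. All 10 day 42 mice with a letter lay below the day 0 mean of their letter, although the 2 ranges overlapped. The log2 change was -0.15 ± 0.02 (SE of the fit, as for every change below), a fall of 9.90%, with an adjusted p of 4.5e-07 in limma. It was called from day 7 on, where the adjusted p was 0.0088 and 11 of 11 mice were lower.

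The other depots showed smaller falls of Psma1. In the labelled mesenteric depot it ran from 5.03 over 5.43 to 5.82 at day 42, against 5.47, 5.78 and 5.95 at day 0, and in the labelled perirenal depot from 5.33 over 5.55 to 6.02, against 5.50, 5.90 and 6.25. The mesenteric means were 5.73, 5.79, 5.65, 5.56, 5.52, 5.46, 5.43 and 5.37 by day, and the perirenal ones 5.93, 6.10, 5.90, 5.91, 5.81, 5.65, 5.61 and 5.61. Both log2 changes came to -0.08 ± 0.02, with limma adjusted p-values of 0.0023 and 0.0019. In liver, hypothalamus and the labelled subcutaneous depot Psma1 was not called at day 42. Over all days and tissues it was called 11 times, each time lower, more often than any other member. A second, dim probe set of Psma1, with a mean of 0.0684 in the labelled mesenteric and 0.0858 in the perirenal depot, had log2 changes of 0.06 ± 0.05 and 0.05 ± 0.05 there and was not called.

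Other alpha ring genes were called in 1 or 2 tissues. Psma4 was the only member called in both directions at day 42, higher in liver (0.05 ± 0.02, limma adjusted p = 0.022, 12 of 12 mice) and lower in the labelled mesenteric depot (-0.06 ± 0.02, adjusted p = 0.043, 8 of 11 mice). Its liver arrays ran from 11.8 over 12.3 to 12.8 at day 42, against 11.3, 11.99 and 12.4 at day 0, and the liver call was lost with erythrocyte and lymphocyte marker scores as covariates. Its liver means were 11.9, 11.9, 12.04, 12.04, 12.2, 12.2, 12.3 and 12.6 by day. Psma5 was lower in the labelled mesenteric and perigonadal depots by 0.06 and 0.07 on the log2 scale. Its perigonadal arrays ran from 3.79 over 3.93 to 4.08 at day 42, against 3.93, 4.13 and 4.28, with means of 4.11, 4.11, 4.03, 3.95, 3.96, 3.98, 3.92 and 3.90 by day. Further, Psma3 was higher in the labelled perirenal depot by 0.04 in 12 of 12 mice. Psma2, Psma6 and Psma7 were called in no tissue at day 42.

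Psma8, an alpha subunit of the testis, was dim throughout. It did not pass the filter on low values in hypothalamus, and in the labelled subcutaneous depot its 11 arrays ran from 0.0842 over 0.101 to 0.133 at day 42, against 0.105, 0.124 and 0.149 at day 0. Its means there were 0.124, 0.129, 0.124, 0.119, 0.105, 0.113, 0.103 and 0.103 by day. The log2 change of -0.28 ± 0.08 at day 42 was the greatest fall of a called member at that day (limma adjusted p = 0.036, lower in 10 of 11 mice). It lost the call on leaving out any of 11 single mice, among them J33, J40, J5, N20 and N92.

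In the beta ring, Psmb2, a subunit that does not cut, was lower in 3 depots. In the labelled mesenteric depot it averaged 3.26, 3.23, 3.16, 3.22, 3.06, 3.10, 2.95 and 3.00 by day. The 11 arrays of day 42 ran from 1.96 over 2.98 to 3.25, against 3.16, 3.25 and 3.42 at day 0, and the lowest of them was that of N20. The log2 change was -0.15 ± 0.04 (limma adjusted p = 0.00081, lower in 10 of 11 mice), and it was -0.09 ± 0.02 with an adjusted p of 0.0014 without the arrays that stood apart. In the labelled perirenal depot Psmb2 fell by 0.09 (adjusted p = 0.0078) and in the labelled perigonadal depot by 0.08 (adjusted p = 0.043).

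Of the 3 constitutive cutting subunits, only Psmb5, which carries the chymotrypsin-like activity, was called at day 42. Its 11 arrays in the labelled mesenteric depot ran from 4 over 5.26 to 5.88 at day 42, against 5.12, 5.67 and 6.27 at day 0, a log2 change of -0.13 ± 0.04 (limma adjusted p = 0.0025). In the labelled perigonadal depot the range was 5.71 over 5.97 to 6.39, against 6.04, 6.36 and 6.80, a log2 change of -0.09 ± 0.02 with 10 of 10 mice lower (adjusted p = 0.0039). Its perigonadal mean was 6.38, 6.38, 6.30, 6.18, 6.04, 6.06, 6.01 and 6.10 by day. Across liver arrays of all days Psmb5 stayed between 7.87 and 9.27.

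Psmb6, with the caspase-like activity, and Psmb7, with the trypsin-like activity, were not called at day 42 in any tissue. Psmb6 had log2 changes from -0.06 in the labelled mesenteric depot, where it was -0.01 without the arrays that stood apart, to 0.04. Its day means in liver lay between 13.1 and 13.7. Psmb7 had log2 changes from -0.07 to 0.00, the lowest in the labelled perigonadal depot with a limma adjusted p of 0.063. Its day means there lay between 5.62 and 5.92. Whether Psmb5 differed from Psmb6 or Psmb7 in its change was not tested.

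The inducible subunit Psmb10, which takes the place of Psmb7 under interferon gamma, was not called at day 42 either. Its log2 changes ran from -0.09 in the labelled mesenteric depot to 0.09 in the labelled subcutaneous one, with limma adjusted p-values of 0.16 and 0.56. The mesenteric change was -0.04 without the arrays that stood apart. The subcutaneous means of Psmb10 were 5.12, 5.02, 5.25, 5.05, 5.54, 5.55, 5.42 and 5.57 by day, among single arrays from 4.32 to 6.55. Psmb11, a subunit of the thymic cortex, passed the filter on low values in liver alone, where its log2 change was -0.01 ± 0.06, and its arrays lay between 0.0219 and 0.104 over all tissues and days.

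Psmb8 and Psmb9, which replace Psmb5 and Psmb6 in the immunoproteasome and were left out of the set, are interferon response genes. In liver Psmb9 was lower, with a log2 change of -0.24 ± 0.06 (limma adjusted p = 0.00070), in the labelled perigonadal depot Psmb8 and Psmb9 were both higher by 0.16, and in the labelled perirenal depot Psmb8 was higher by 0.17.

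In the ATPase ring, which unfolds the substrates, Psmc6 was the member that rose most widely. In liver its mean was 6.29, 6.36, 6.35, 6.36, 6.49, 6.45, 6.73 and 6.96 by day. The 12 livers of day 42 ran from 6.20 over 6.65 to 7.41, against 6.02, 6.26 and 6.62 at day 0, so the upper part of the day 42 group lay above all day 0 values while the lower part overlapped them. The log2 change was 0.10 ± 0.02 (limma adjusted p = 0.0028, 11 of 12 mice), a rise of 6.85%. It was 0.06, and no longer called, with erythrocyte and lymphocyte marker scores as covariates. Psmc6 also rose by 0.09 ± 0.02 in the labelled perirenal depot (adjusted p = 0.0028), where the arrays ran from 6.43 over 6.88 to 7.57, against 6.03, 6.52 and 6.79, and the means were 6.48, 6.39, 6.39, 6.53, 6.61, 6.52, 6.90 and 7.01 by day. In the labelled perigonadal depot it rose by 0.09 ± 0.03 in 10 of 10 mice (adjusted p = 0.011), with arrays from 6.12 over 6.51 to 7.04, against 5.80, 6.02 and 6.84. The changes of 0.06 in each of the labelled subcutaneous and mesenteric depots did not pass the test. A second, dimmer probe set of Psmc6, with a mean of 0.480 in liver, was not called in any tissue. Its log2 changes were 0.01 ± 0.06 in liver, 0.04 ± 0.05 in the labelled perirenal and 0.04 ± 0.06 in the perigonadal depot. They were 0.10 ± 0.05 in the mesenteric and -0.11 ± 0.08 in the subcutaneous depot.

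Psmc2 was higher in liver at day 42 (0.05 ± 0.02, limma adjusted p = 0.039), a call that was lost with the same covariates, and Psmc4 lower in the labelled perigonadal depot (-0.06 ± 0.02, adjusted p = 0.026). At day 60 Psmc2 and Psmc5 were higher both in liver, by 0.10 and 0.11, and in the labelled perirenal depot, by 0.08 and 0.09. Psmc1 and Psmc3 were not called at day 42 in any tissue.

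Among the non-ATPase subunits of the regulatory particle, 5 of 11 were lower in the labelled mesenteric depot (17.2% of all genes were), 3 in the labelled perirenal (9.39%) and 3 in the labelled perigonadal depot (13.6%). Psmd12 was higher in the labelled perirenal depot. Psmd4, a receptor for ubiquitin chains, fell in all 3 of these depots, by 0.09, 0.07 and 0.08 on the log2 scale with limma adjusted p-values of 0.0047, 0.0063 and 0.0035. Its mesenteric means were 5.59, 5.64, 5.44, 5.46, 5.38, 5.37, 5.27 and 5.19 by day. The 11 arrays of day 42 there ran from 4.03 over 5.38 to 5.81, against 5.37, 5.61 and 5.76 at day 0, and the log2 change was -0.05 ± 0.02 (adjusted p = 0.017) without the arrays that stood apart. The perigonadal means were 6.02, 6.17, 5.98, 5.81, 5.63, 5.64, 5.71 and 5.68 by day, and the perirenal ones 6.43, 6.47, 6.26, 6.35, 6.29, 6.23, 6.14 and 6.02. A dimmer second probe set of Psmd4 was not called in these depots, with log2 changes of 0.04 ± 0.03, 0.06 ± 0.03 and -0.04 ± 0.04 in the mesenteric, perirenal and perigonadal one.

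Psmd13, a subunit of the lid, fell in the same 3 depots by 0.13, 0.07 and 0.08, with limma adjusted p-values of 0.0021, 0.022 and 0.0055. Its mesenteric arrays ran from 2.01 over 2.96 to 3.23 at day 42, against 2.73, 3.08 and 3.23 at day 0, and averaged 3.06, 3.05, 3.00, 2.97, 2.92, 2.93, 2.81 and 2.79 by day. The mesenteric change was -0.08 ± 0.02 without the arrays that stood apart. Psmd14, the enzyme that removes ubiquitin chains from substrates, was lower by 0.06 and 0.05 in the labelled mesenteric and perigonadal depots. Its partner Psmd7 was lower by 0.12 and 0.11 in the labelled mesenteric and perirenal depots, and the mesenteric call was lost without N20 alone (adjusted p = 0.053 without all arrays that stood apart). Psmd1, a scaffold subunit, was lower by 0.05 in the labelled mesenteric depot. Psmd2, Psmd3, Psmd6, Psmd8 and Psmd11 were not called at day 42 in any tissue.

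Of the 3 chaperones that assemble the regulatory particle, Psmd5 was called higher and Psmd9 and Psmd10 lower at day 42, in different depots, and the differences between them were not tested. Psmd5 was higher in the labelled subcutaneous depot at day 42, where its arrays ran from 1.91 over 2.04 to 2.37, against 1.83, 1.93 and 2.01 at day 0 (log2 change 0.12 ± 0.03, limma adjusted p = 0.019). The means there were 1.93, 2.01, 1.89, 1.95, 1.96, 1.93, 2.10 and 2.18 by day, and the call was lost without N70 and without N92. In liver Psmd5 averaged 2.49, 2.62, 2.49, 2.50, 2.57, 2.54, 2.59 and 2.87 by day. Its 6 livers of day 60 ran from 2.68 over 2.86 to 3.07 and lay above all 12 of day 0, which ended at 2.61. The log2 change at day 60 was 0.19 ± 0.03 (adjusted p = 3.7e-05), the greatest rise of a member in any tissue or day.

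Psmd9 was lower in the labelled mesenteric and perigonadal depots at day 42. In the perigonadal one its arrays ran from 0.675 over 0.758 to 0.851, against 0.789, 0.822 and 0.870 at day 0 (log2 change -0.11 ± 0.03, limma adjusted p = 0.0036), and its means were 0.823, 0.849, 0.828, 0.777, 0.759, 0.740, 0.763 and 0.762 by day. The mesenteric log2 change was -0.13 ± 0.04, and -0.07 ± 0.03 without the arrays that stood apart. Psmd10 was lower in the labelled perirenal depot by 0.07 (adjusted p = 0.041), where 12 arrays ran from 0.760 over 0.837 to 0.885, against 0.809, 0.882 and 0.946, and its perirenal day means lay between 0.803 and 0.870.

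Of the activators, Psme4, a nuclear cap of the core, fell in 3 depots. In the labelled perigonadal depot its arrays ran from 1.92 over 2.06 to 2.46 at day 42, against 2.14, 2.22 and 2.34 at day 0, so that most but not all day 42 arrays lay below day 0. Its means there were 2.24, 2.25, 2.21, 2.25, 2.15, 2.06, 2.08 and 1.97 by day. The log2 change at day 42 was -0.11 ± 0.03 (limma adjusted p = 0.010), and it was -0.09 ± 0.03 in the labelled mesenteric and -0.10 ± 0.03 in the labelled perirenal depot. At day 60 it was -0.21 ± 0.04, -0.16 ± 0.03 and -0.16 ± 0.04 in the labelled perigonadal, mesenteric and perirenal depots.

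Psme4 had 8 probe sets, and they disagreed. The 3 brightest were lower at day 42 in all 3 depots, with log2 changes of -0.22 and -0.23 in the labelled mesenteric depot for those ranked 2 and 3. The probe set ranked 4, with a mean intensity of 0.384 there, was higher by 0.23 ± 0.05 (limma adjusted p = 0.00010). Those ranked 5 and 8 were also higher there, by 0.11 ± 0.04 (adjusted p = 0.031) and 0.13 ± 0.05 (adjusted p = 0.045). The array table does not say which transcript part each probe set covers, so the statements on Psme4 hold for its bright probe sets.

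**Figure D2:**
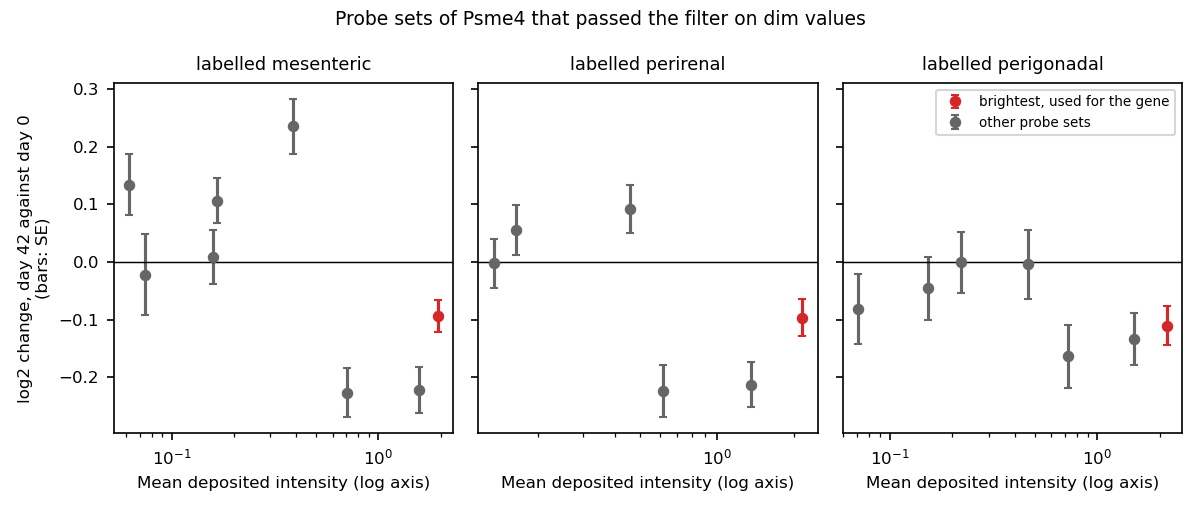
Log2 change at day 42 against day 0 with its SE (vertical axis) of each Psme4 probe set against its mean deposited intensity (horizontal axis, log scale) in 3 depots, with the brightest probe set, used for the gene, in red. The 3 bright probe sets lie below 0 in all 3 panels, and in the labelled mesenteric depot the next brightest lies at 0.23.

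Psme1 and Psme2, which form the activator induced by interferon gamma, were not called at day 42 in any tissue, with log2 changes from -0.02 to 0.06 and from -0.05 to 0.04. The day means of Psme1 in liver lay between 10.9 and 11.2, and those of Psme2 between 6.41 and 6.65. In the labelled perigonadal depot Psme2 was lower at day 7 (-0.07 ± 0.02, limma adjusted p = 0.022) and at day 60 (-0.08 ± 0.03, adjusted p = 0.036). Psme3, the nuclear activator, rose by 0.08 ± 0.03 in liver in 12 of 12 mice (adjusted p = 0.037), and this call too was lost with the marker scores as covariates. Its liver arrays ran from 2.71 over 2.88 to 3.06, against 2.51, 2.78 and 2.92, with means of 2.73, 2.80, 2.83, 2.83, 2.86, 2.89, 2.88 and 2.89 by day. A second probe set of Psme3, with a mean of 1.86 in liver, had a log2 change of 0.02 ± 0.02 there and was not called.

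**Figure D3:**
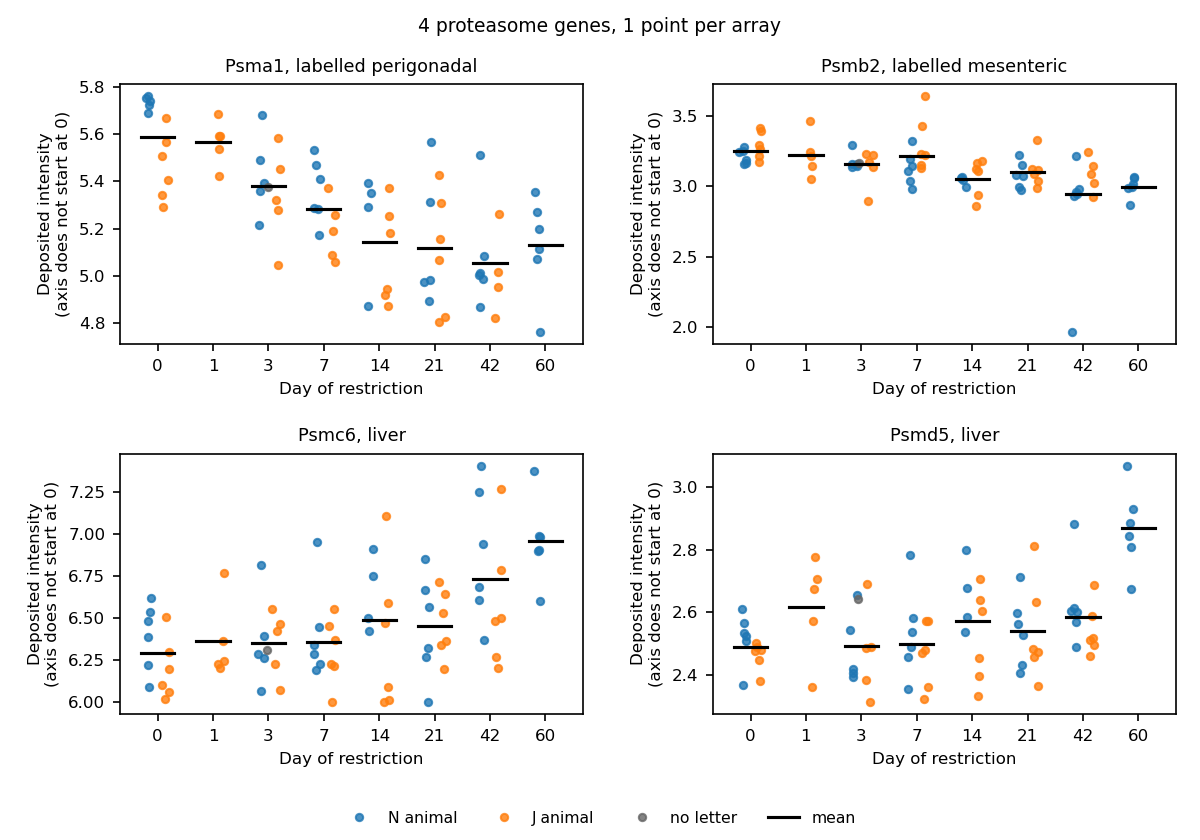
Deposited intensity (vertical axis, not starting at 0) by day of restriction (horizontal axis) for Psma1 in the labelled perigonadal depot, Psmb2 in the labelled mesenteric depot, and Psmc6 and Psmd5 in liver, with a point per array, N animals in blue, J animals in orange and black lines for day means. Psma1 declines to 5.05 at day 42, the lowest Psmb2 array at day 42 lies at 1.96, and the liver means of Psmc6 and Psmd5 are highest at day 60, at 6.96 and 2.87.

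The share of members called at day 42 was read against that of all genes tested in the tissue. In hypothalamus 0 of 39 members were called by limma, as were 0% of all genes, and 1 member had an unadjusted p under 0.05. In liver 4 of 41 members were higher (8.08% of all genes) and 0 lower (13.2%), against 21.3% of all genes in either direction. In the labelled subcutaneous depot 1 of 40 was higher (1.09%) and 1 lower (2.95%), with 4.03% in all. In the labelled mesenteric depot 0 of 40 were higher (15%) and 12 lower (17.2%), with 32.2% in all. In the labelled perirenal depot 3 of 40 were higher (12.6%) and 7 lower (9.39%), with 22% in all, and in the labelled perigonadal depot 1 of 40 was higher (13.2%) and 10 lower (13.6%), with 26.9% in all. The number called in either direction was thus below the background in liver and near it in the depots, and the falls alone came to 30% of the members in the labelled mesenteric, 17.5% in the perirenal and 25% in the perigonadal depot, each above the share of all genes that were lower. No test was made of these shares. The median log2 change of the members was -0.04 in the labelled mesenteric depot, where that of all genes was 0.01, and -0.01 in the labelled perigonadal depot, where that of all genes was 0.00. The ranges of day 42 and day 0 arrays overlapped in all 240 member tests. How often they overlapped over all genes was not counted.

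With J mice alone 0 members were called at day 42 in liver, 0 in the labelled subcutaneous, 0 in the mesenteric, 5 in the perirenal and 1 in the perigonadal depot, and with N mice alone 2, 0, 7, 1 and 4. The called members had the same sign in J and in N mice in 4 of 4 liver calls, 2 of 2, 12 of 12, 10 of 10 and 11 of 11 depot calls, but they had been called from both together. With erythrocyte and lymphocyte marker scores as covariates 0 liver members were called at day 42. The shares of all genes called under these settings are not given here. Whether the members lost calls more than all genes did was not tested. Both erythrocyte markers tested were lower in liver at day 42 (13.2% of all genes were). Their summed intensity ran from 1.38 to 3.96, against 3.65 to 4.23 at day 0. Of the macrophage markers, 7 of 11 were lower in the labelled mesenteric depot (17.2% of all genes were). Their sum ran from 60.9 to 71.6, against 67.0 to 75.6. The part of the macrophage markers in the mesenteric falls was not tested.

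The summed skeletal muscle markers, 0 of 12 of them called (26.9% of all genes), varied in the labelled perigonadal depot. Their sum ran from 9.45 over a median of 66.9 to 107 at day 42, against 10.2, 12.02 and 94.4 at day 0. With marker scores of muscle, erythrocytes and lymphocytes as covariates 15 perigonadal members were called at day 42, and without the arrays high in these scores 11. For these settings too the shares of all genes are not given here. Without the arrays that stood apart 12 members were lower and 0 higher in the labelled mesenteric depot, with Psma4 and Psmd7 no longer and Psmc3 and Psmc4 newly among them. Of all genes there 37.7% were then called, 2446 of 13474 higher and 2632 lower. In the labelled perirenal depot Psmd12 was no longer called.

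Some calls at day 42 hung on single mice. Leaving out 1 mouse at a time, Psmc2 in liver lost its call without any of 11 mice, Psme3 in liver without any of 8, and Psma4 in liver without N72. In the labelled mesenteric depot Psma5 lost it without any of 16, Psma4 and Psmd14 without any of 14 and Psmd1 without any of 7. In the labelled perirenal depot Psmd10 lost it without any of 12, Psmd12 without J4, J40, N50, N70 or N92, Psmd13 without J36 or N20, Psmd7 without J17 or J36, and Psme4 without J17. Perigonadal calls were lost by Psmb2 without any of 14, Psmd14 without any of 13, and Psmc4 without J21, N10, N45 or N92. Psma1 and Psmd4 in 3 depots and Psmc6 in liver and 2 depots were called whichever mouse was left out.

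The earlier days held few calls. At day 1 no member was called in any tissue by limma, while of all genes 0% were called in hypothalamus, 3.63% in liver, 0% in the labelled subcutaneous, 0.0445% in the mesenteric, 0.0367% in the perirenal and 0.357% in the perigonadal depot. At day 3 again no member was called, against 0% in hypothalamus, 4.09% in liver, 0% in the labelled subcutaneous, 0.542% in the mesenteric, 0.022% in the perirenal and 1.54% in the perigonadal depot. An unadjusted p under 0.05 was found for 0 to 4 members per tissue at day 1 and 0 to 6 at day 3. At day 7 the only calls were 3 perigonadal falls, Psma1, Psma5 and Psme2, or 7.5% of the members. Of all genes there 5.53% were lower and 9.55% called in either direction. The background in either direction was 0% in hypothalamus, 8.41% in liver, 0% in the labelled subcutaneous, 3.84% in the mesenteric and 0.0954% in the perirenal depot. At day 14 there were 7 perigonadal falls, or 17.5% of the members, led by Psma1 and Psmd4, and no calls elsewhere. Of all perigonadal genes 6.71% were lower and 13.4% called in either direction. Elsewhere the background in either direction was 0% in hypothalamus, 12.2% in liver, 0.0669% in the labelled subcutaneous, 4.36% in the mesenteric and 0.587% in the perirenal depot. At day 14, as at day 42, the perigonadal list held Psma1, Psmd4, Psmd9, Psmb2, Psmd13 and Psmb5, and Psmd7 was on the day 14 list alone. Without the arrays that stood apart, 7 members were lower in the labelled mesenteric depot at day 14 and 1 at day 3. Of all 13474 genes there 997 and 266 were lower, with 12.6% and 3.04% called in either direction. In liver 1 member was then higher at day 3 and 1 at day 7. Of all 13535 genes there 176 and 307 were higher, with 4.37% and 7.73% called in either direction.

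At day 21 Psmc5 was the only member called in liver, higher by 0.08 ± 0.02 (limma adjusted p = 0.027; 8.95% of all genes were called). In the labelled mesenteric depot 6 members were lower, namely Psma1, Psma5, Psmd7, Psme4, Psmd14 and Psmd1. Of all genes there 8.01% were lower and 16.5% called in either direction. In the labelled perirenal depot Psma1 alone was lower (1.51% of all genes were, with 3.36% in either direction). Without the arrays that stood apart 13 members were lower in the mesenteric depot. There 31% of all genes were then called in either direction, and 2060 of 13474 were lower. In the labelled perigonadal depot 11 members were lower, among them Psmd9 by 0.15 and Psmd2 and Psmd8, which were not called at day 42. Of all genes there 10.3% were lower and 19.6% called in either direction. No member was called in hypothalamus (0%) or the labelled subcutaneous depot (0.156%).

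Day 60 held only N mice. In liver 7 members were higher (9.60% of all genes were) and 0 lower (10.4%), against 20% of all genes in either direction. The 7 members were Psmd5, Psmc6, Psmc2, Psmc5, Psma4, Psmb4 and Psme3, and 6 of 6 mice were higher for all of them except Psma4 with 5 of 6. In the labelled perirenal depot 6 were higher (11.5%) and 5 lower (8.59%), with 20.1% of all genes in either direction. The mesenteric depot had 0 higher (11.5%) and 6 lower (14.6%), with 26.2% in either direction. In the perigonadal depot 1 was higher (10.4%) and 8 lower (11.4%), with 21.7% in either direction. The subcutaneous depot had 1 higher (5.42%) and 1 lower (4.31%), with 9.73% in either direction, while hypothalamus had 0 (0.0152%). In the mesenteric depot 14 members were lower without the arrays that stood apart. There 37.4% of all genes were then called in either direction, and 2653 of 13474 were lower. The subcutaneous fall was that of Psma8, by 0.34 ± 0.10 (limma adjusted p = 0.028), the greatest of any member at any day, and the rise that of Psmd5, by 0.16 ± 0.04. In 6 member tests the day 60 and day 0 arrays did not overlap. These were Psmd5 in liver, Psmb2, Psmd4 and Psme4 in the labelled mesenteric and Psmd9 and Psme4 in the labelled perigonadal depot. Psmb2 was not called among them (limma adjusted p = 0.11). How many tests of all genes had arrays without overlap at day 60 was not counted.

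**Figure D4:**
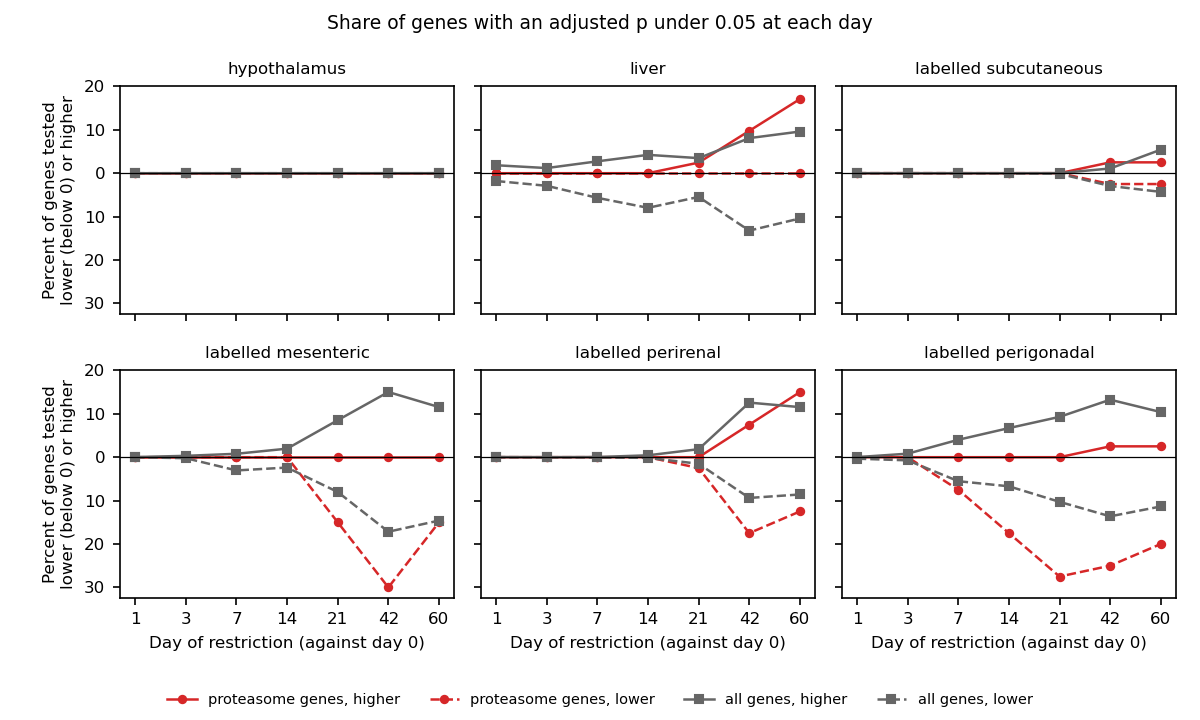
Percent of tested genes with an adjusted p under 0.05 (vertical axis, higher above 0 and lower below 0) at each day of restriction against day 0 (horizontal axis) for the proteasome genes (red) and all genes (grey) in the 6 tissues. At day 42 the members lower in the labelled mesenteric depot reach 30%, against 17.2% of all genes, and no member was lower in liver at any day.

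Day 42 against day 3 called 1 member higher in liver, Psmc6 (5.95% of all genes were higher, 12.9% called in either direction). In the labelled subcutaneous depot 1 was higher, Psmd5 (0.327%, and 1.41% in either direction). The mesenteric depot had 1 higher (9.89%) and 4 lower (13.6%), with 23.5% in either direction. In the perirenal depot 8 were higher (11.6%) and 3 lower (9.21%), with 20.8% in either direction. The perigonadal depot had 3 higher (10.8%) and 5 lower (11.5%), with 22.3% in either direction, and hypothalamus 0 (0.00759%). The mesenteric depot held 1 higher and 2 lower without the arrays that stood apart. In the labelled perirenal depot these rises were led by Psma3 (0.06 ± 0.01, limma adjusted p = 0.00048), Psmc6 and Psmd12. Day 60 against day 42 called no member in any tissue, against 0% of all genes in hypothalamus, 0.00739% in liver, 0.00744% in the labelled subcutaneous depot and 0% in the other 3 depots, and 0 to 6 members per tissue had an unadjusted p under 0.05. A moderated F test over all days called 0 members in hypothalamus (0.0152% of all genes) and 6 in liver (28.5%). It called 2 in the labelled subcutaneous (5.79%), 10 in the mesenteric (38.2%), 13 in the perirenal (24.9%) and 15 in the perigonadal depot (36.1%).

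Between the letters of the animal IDs, N minus J over all days, liver held 10 higher members (9.91% of all genes) and 1 lower (4.89%). They were led by Psmd10 (0.08 ± 0.01, limma adjusted p = 0.00012) and Psmd14 (0.06 ± 0.01), and 14.8% of all genes were called in either direction. The labelled mesenteric depot held 3 higher (17.5%) and 7 lower (12.6%), with 30.1% in either direction, led by Psmb4 (-0.07 ± 0.01). Hypothalamus held 0 higher (11%) and 3 lower (7.99%), with 19% in either direction. The perigonadal depot held 1 higher (0.751%, and 2.34% in either direction), and the subcutaneous (8.34%) and perirenal (0.0587%) depots none. Without the arrays that stood apart liver held 8 higher and 3 lower (14.8% of all genes called) and the mesenteric depot 1 higher and 9 lower (16.6%). The perigonadal depot then held 3 higher (3.35%) and the subcutaneous depot none (0%). What the letter stands for is not given in the labels.

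Whether the day 42 effect itself differed between tissues was tested in joint fits of tissue pairs. Against the labelled mesenteric depot, liver had a higher effect for 7 members (11.5% of all genes) and a lower one for 1 (12.7%). Of all genes 24.1% differed in either direction. Psme4 differed most clearly, by 0.14 ± 0.03 on the log2 scale (limma adjusted p = 0.00095), and it differed likewise by 0.14 ± 0.04 and 0.16 ± 0.04 from the labelled perirenal and perigonadal depots. Psma4, Psme3, Psmd7, Psmb2, Psmb5 and Psma1 were the others with a higher effect in liver, and Psmc1 had the lower one. Without the arrays that stood apart 4 members differed, namely Psme4, Psma4, Psma1 and Psmd6.

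Against the labelled perirenal depot 4 members had a higher effect in liver (6.85% of all genes) and 1 a lower one (11.5%), with 18.4% in either direction. Against the perigonadal depot Psma1 and Psme4 had a higher effect in liver (8.70%, and 20.2% in either direction), Psma1 by 0.14 ± 0.03 (limma adjusted p = 3.7e-05). Against the labelled subcutaneous depot liver differed for 0 members (4.03%). Among depots, the mesenteric effect was below the subcutaneous one for Psmb2 (-0.21 ± 0.05, adjusted p = 0.011) and Psmd9 (-0.17 ± 0.05, adjusted p = 0.048). It was below for 1.48% of all genes, with 2.87% called in either direction, and Psmb2 alone remained without the arrays that stood apart. The perigonadal effect was below the subcutaneous one for Psma1 (-0.12 ± 0.03, adjusted p = 0.047) and for 0.427% of all genes (0.644% in either direction). The perirenal effect differed for 0 members (0.0307%).

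**Figure D5:**
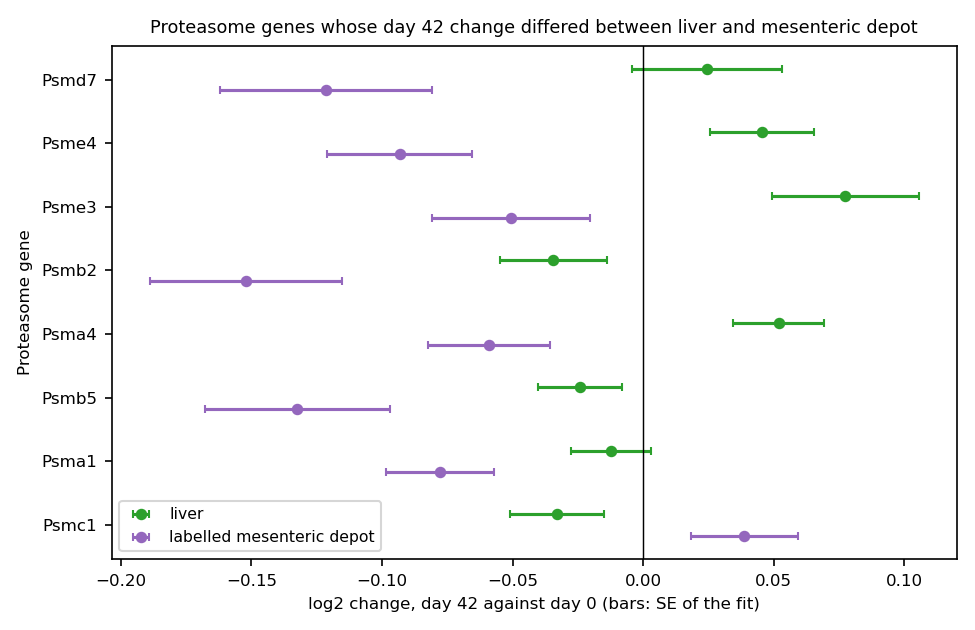
Log2 change at day 42 against day 0 (horizontal axis, bars are SE of the fit) of the 8 members whose change differed between liver (green) and the labelled mesenteric depot (purple). Liver lies to the right for 7 of them, and Psmc1 is the exception.

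The genes around the proteasome also moved in both directions at day 42. Of 15 tested assembly and accessory genes, 1 was higher and 1 lower by limma in liver (8.08% and 13.2% of all genes). In the labelled mesenteric depot 3 were higher and 5 lower (15% and 17.2%). The perirenal depot had 3 higher and 2 lower (12.6% and 9.39%), and the perigonadal depot 0 higher and 4 lower (13.2% and 13.6%). Pomp, the chaperone that matures the core, was lower in these 3 depots, by 0.08, 0.04 and 0.04 on the log2 scale, as was Uchl5, a deubiquitinase of the regulatory particle, by 0.10, 0.11 and 0.08, and the mesenteric values of Pomp and Uchl5 were chosen after they were seen. Ube3c, a ubiquitin ligase, was lower in the labelled mesenteric depot (-0.16 ± 0.04, adjusted p = 0.00026). Psmf1, known as an inhibitor of the core, was lower in liver (-0.14 ± 0.03, limma adjusted p = 2.4e-05) and in the labelled mesenteric and perigonadal depots. Adrm1, another ubiquitin receptor, was higher by 0.08 and 0.06 in the labelled mesenteric and perirenal depots.

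Of 8 tested regulators of proteasome genes, 3 were lower in liver (13.2% of all genes) and 2 higher in the labelled mesenteric depot (15%). In the perirenal depot 2 were higher and 2 lower (12.6% and 9.39%), and in the perigonadal depot 1 was higher (13.2%). Nfe2l1 was lower in liver (-0.08 ± 0.02, limma adjusted p = 0.011) and in the labelled perirenal depot (-0.07 ± 0.02, adjusted p = 0.042), and its changes elsewhere did not pass the test. Its small Maf partners Maff and Mafk were lower in liver by 0.35 and 0.21, and Mafg was higher by 0.17 in the labelled mesenteric and perirenal depots. Foxo1, a factor restrained by insulin, was higher in 3 depots by 0.20, 0.18 and 0.09. Of 5 tested ubiquitin and delivery genes, Ubqln4 (0.16 ± 0.03, limma adjusted p = 0.00026), Uba6 and Rad23b were higher in liver (8.08% of all genes). Rad23b was also higher in the labelled subcutaneous depot (1.09%). No test was made of these counts against the shares of all genes.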

How the data were processed

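Each probe set has 1 linear intensity on every array in the deposited table, with array means between 0.962 and 0.999. The sources used here do not say how the authors summarised or normalised these intensities. Of 32640 probe sets, 25508 carried 1 gene symbol and 7132 none. RefSeq tables (GRCm38.p6) gave current symbols and promoter sequences. The log2 of each intensity was taken without an offset, and the brightest probe set per tissue stood for a gene. A gene was tested where its mean exceeded percentile 25 over the means of all probe sets, which all 41 members passed in liver, 40 in each depot (without Psmb11) and 39 in hypothalamus (without Psma8 and Psmb11). Each tissue had its own fit in limma (version 3.58.1, R 4.3.3) using the trend and robust options of eBayes, with day as a factor and the ID's letter as a term. Tests were two-sided, with Benjamini-Hochberg adjustment over all genes of the tissue. Tissue pairs were fitted jointly. The tissues of a mouse share its ID, which pairs the arrays, and their residuals had a median correlation of 0.035 to 0.098 over the pairs of tissues. The scripts were tested on simulated data.

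All members could be named. Values of every day were given for the 3 called members with the smallest adjusted p at day 42 in each tissue. They were also given for the 6 members called in 3 tissues, and for the cutting, inducible and tissue-restricted subunits. Psmd4, Psme4 and the assembly chaperones had them too, and some values were given as a range of day means. From each list of other genes up to 4 called genes per tissue with the smallest adjusted p could be named, and Nfe2l1 always. The alternatives varied the letter term, J or N mice alone, the filter, array scaling, the probe set rule, the limma options, marker covariates, single mice and arrays that stood apart, and an animal block. Members, gene lists and alternatives were chosen with earlier results of these data known. Arrays of 1 tissue and day come from different mice, and their number limits the precision. No pair of arrays held identical values.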

Additional observations from a re-analysis of the deposited data

Results flagged for a closer look

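Single arrays of the 6 members called in 3 tissues lay far from the rest of their group in 10 of 132 groups of 5 to 10 arrays, and chance flags about 1 in 20 groups. Groups of 11 or 12 arrays were not tested. Mouse N98 stood low in the labelled mesenteric depot at day 14 for 3 members, with 5.18 for Psma1 (others 5.46 to 5.69), 4.86 for Psmc6 (others 5.48 to 5.82) and 1.72 for Psme4 (others 1.89 to 2.01). Psmc6 was 4.79 in J51 in the labelled subcutaneous depot at day 14 (others 5.34 to 5.76). Psmd13 was 2.34 in the hypothalamus of mouse 32 at day 3 (others 2.21 to 2.27), 2.19 in that of N82 at day 60 (others 2.24 to 2.26), 2.68 in the labelled mesenteric depot of N82 (others 2.78 to 2.84) and 2.83 in the labelled perigonadal depot of N69 at day 42 (others 3.05 to 3.28). Psmd4 was 5.67 in the liver of N43 at day 60 (others 5.20 to 5.35), and Psme4 was 2.46 in the labelled perigonadal depot of N92 at day 42 (others 1.92 to 2.18). The median over all members stood apart in 0 of 27 groups.

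The day 42 effect differed between tissues by the joint test for 8 members between liver and the labelled mesenteric depot, 5 between liver and the perirenal, 2 between liver and the perigonadal, 2 between the mesenteric and subcutaneous and 1 between the perigonadal and subcutaneous depots.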

How the results depend on the processing

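No day 42 change that was called reversed under an alternative other than another probe set, while signs of uncalled changes turned in places. Of the 39 day 42 calls, 6 held with the J mice, 12 with the N mice, 31 after centring arrays on their median, 32 after quantile normalization, 26 with the mean of all probe sets, 35 without the filter on dim genes, 36 without the letter term, 31 with marker scores as covariates, 32 without arrays high in those scores and 39 without the trend and robust options. Calls in J and in N mice alone were 0 and 2 in liver (4 with all mice), 0 and 0 in the labelled subcutaneous (2), 0 and 7 in the mesenteric (12), 5 and 1 in the perirenal (10) and 1 and 4 in the perigonadal depot (11). These fits hold fewer mice. Liver had 2 after median centring and 0 with marker covariates, the subcutaneous depot 1 without the letter term and 1 (a fall) with the mean of probe sets, and the perirenal depot 6 with that mean. Summed over tissues, the 0 day 3 calls became 1 after median centring (Psme4 in liver, 0.09), the 3 of day 7 became 0 in J and 1 in N, the 7 of day 14 became 0 in J, the 19 of day 21 became 3 in J, 7 in N and 12 without high-score arrays, the 26 of day 42 against day 3 became 3 in J, 6 in N and 17 with marker covariates, and the 0 of day 60 against day 42 became 1 without the letter term (Psmd5 in liver, 0.15). The shares of all genes called under these alternatives are not given here, and the cause was not tested.

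The remaining alternatives were chosen after seeing the data, except leaving out day 1 mice and the fit with the animal as a replicate block. Leaving out each day 1 mouse gave 0 to 1 calls, the 1 being Psmd5 in liver (0.12) without J7. Leaving out each day 0 or day 42 mouse gave 2 to 4 calls in liver (2 without N20, N45 or N72), 0 to 3 in the labelled subcutaneous depot (0 without N70 or N92, 1 without J33, J40, J5, J53, N20, N30, N37, N45 or N50), 8 to 14 in the mesenteric, 8 to 13 in the perirenal, 8 to 13 in the perigonadal depot and 0 in hypothalamus. Without the arrays that stood apart, day 3 had 2 calls, day 14 had 15, liver minus mesenteric 4 and mesenteric minus subcutaneous 1. By tissue, the mesenteric depot then had 13 calls instead of 6 at day 21, 14 instead of 6 at day 60 and 3 instead of 5 at day 42 against day 3, and the perigonadal depot 3 instead of 1 between the letters. With the animal as a replicate block, the tissue differences were called for 9 members between liver and the mesenteric depot, 6 for the perirenal and 2 for the perigonadal, 2 between the mesenteric and subcutaneous and 1 between the perigonadal and subcutaneous depots, and for 0 in the other pairs. With another probe set of the gene, 16 of 101 changes lost and 2 gained a call, and 10 that were called with the brightest probe set had the opposite sign. These were Psma1 in the labelled mesenteric (0.0563) and perirenal depot (0.0506), Psmd4 in both (0.0355 and 0.0600), and Psme4 in the mesenteric depot (0.235, 0.106, 0.0082 and 0.134) and the perirenal one (0.0917 and 0.0561). All of these probe sets were dimmer than the one used.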
